A study of Mus musculus with 2 samples.

Results

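Arteries, capillaries and veins are lined by endothelial cells (ECs) of different identity, and a small set of genes is known for setting or marking that identity. The 7 genes described here are the membrane ligand Efnb2 (ephrin-B2), its receptor Ephb4, the nuclear receptor Nr2f2 (COUP-TFII), the SOXF transcription factors Sox7, Sox17 and Sox18, and the netrin receptor Unc5b. They were chosen by name, with earlier results of these data known, from 18309 genes listed in the count tables of normal mammary gland ECs (NECs) and tumor ECs (TECs), and all 7 are among the 14976 genes listed in both. Their levels were compared between vessel types in the normal gland, between TECs and NECs, and between the clusters of each library. The cells were those with at least 200 genes, less than 10% mitochondrial UMIs (unique molecular identifiers, 1 per captured transcript), no UMI of Ptprc, Myh11, Epcam or Cspg4, and at least 1 UMI of Cdh5 or Pecam1, which both encode EC adhesion molecules. In the tumor library, the sum of Cdh5 and Pecam1 UMIs also had to be above the sum of Rhox5, Hmga2 and Krt8 UMIs. The rule kept 4940 of 9047 barcodes as NECs and 261 of 704 as TECs.

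Ephrin-B2 on arterial ECs and EphB4 on venous ECs are a membrane-bound ligand and receptor pair that signals in both directions where the cells touch, and the pair is needed for arteries and veins to form as separate vessels. Notch signaling, driven by ligands such as Dll4 and Jag1, favors arterial identity and Efnb2 expression. In venous ECs, Nr2f2 is known to repress the Notch program, while the SOXF factors act together with Notch and VEGF signaling, and Sox17 in particular is tied to arterial fate. Sox18 is best known for its part in lymphatic specification, in which Sox7 and Sox17 can partly stand in for it. Unc5b guides endothelial tip cells away from netrin and is found in arteries and sprouting capillaries.

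Both libraries are droplet single-cell RNA libraries of live cells sorted by flow cytometry as CD45-/CD31+ after collagenase digestion. NECs came from pooled normal mammary glands of C57BL/6 mice 6 to 8 weeks old, and TECs came from pooled E0771 tumors, which are mammary carcinoma cells implanted in the mammary gland. For the tumor library, the labels give neither strain nor age. Neither group carries an engineered allele or a treatment in the labels. Other label fields of the normal library name TECs and E0771, while its title and the design text give normal glands, which is how it was read. With 1 library of pooled tissue for each condition there are no biological replicates. No test between conditions is therefore given, and the 95% intervals cover counting error only. Tumor, library and mouse cannot be told apart in this design. NECs were sampled less deeply than TECs, with a median of 2976.5 against 16989 UMIs per cell and a total of 17327221 against 4646103 UMIs. The libraries shared 3 cell barcodes, and none of them was kept. Levels are UMIs of a gene per 1000000 UMIs (CPM), summed over a group of cells, with a Poisson interval. Shares of cells with a UMI were read at an equal depth of 1900 randomly drawn UMIs per cell, which 3831 NECs and 239 TECs reached, with a Clopper-Pearson interval.

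To define vessel types without the genes under study, each library was clustered on variable genes from which the 7 genes and the related pathway genes had been left out. NECs formed 17 clusters, of which 2 were arterial-like (670 cells, led by Gja5 and by S100a4), 2 were venous-like (339 cells, led by Ackr1 and by Selp) and 2 were capillary-like (1389 cells, led by Car8 and by Gpr160). Naming required 3 or more markers of one fixed list, each detected in at least 25% of the cluster and at least 2-fold above the remaining cells, with 1 or more of them in the top 10 genes by fold and no longer set of hits from another list. The markers that define arteries were Gja5 at 189 CPM in arterial-like against 0.601 CPM in venous-like cells, and Bmx at 119 against 6.61 CPM. The venous markers Lbp (2.25 against 170 CPM), Ackr1 (4.50 against 875 CPM) and Vwf (234 against 988 CPM) stood the other way. Of the other clusters, 1 each was high endothelial venule (HEV)-like, mitotic-like, salivary-like and pericyte- or smooth muscle-like, and 7 stayed unnamed. Some unnamed clusters also met the limits on share and fold for single capillary markers. These were Car4, Gpihbp1, Aqp7, Cldn15 and Fabp4 in the Mt2-led, Car8 and Timp4 in the Hspa1a-led and Car4 and Rgcc in the Meis2-led cluster. TECs formed 4 clusters, named interferon (IFN)-like (104 cells), mitotic-like (52 cells) and tip-like (48 cells), with an unnamed cluster of 57 shallow cells with a median of 2198 UMIs.

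In the normal gland, Efnb2, Unc5b, Sox17 and Sox18 were at least 2-fold higher in arterial-like than in venous-like cells, Nr2f2 was at least 2-fold lower, and Ephb4 and Sox7 differed by less. Over the 8661 genes with at least 10 CPM in one group and 20 UMIs in both together, 8.64% were at least 2-fold higher in arterial-like cells and 6.88% at least 2-fold lower, or 15.5% in either direction. The median log2 ratio was 1.21 over the 7 genes and 0.07 over all genes tested. Between these vessel types the ligand differed far more than its receptor. Efnb2 was at 286 CPM (264 to 309) in arterial-like cells and 21.6 CPM (15.1 to 29.9) in venous-like cells, a 13.2-fold difference with a log2 ratio of 3.73 (3.24 to 4.25). After thinning, 38.1% of arterial-like cells and 2.86% of venous-like cells (1.31 to 5.35%) held an Efnb2 UMI. Ephb4 was at 86.4 CPM (74.6 to 99.5) in arterial-like cells and 138 CPM (120 to 157) in venous-like cells. Its log2 ratio of -0.67 (-0.96 to -0.39) lay below 0, and Ephb4 was 1.59-fold higher in venous-like cells.

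Among the transcription factors, Nr2f2 was far lower in arterial-like cells. It was at 229 CPM (206 to 253) in venous-like cells and 8.10 CPM (4.80 to 12.8) in arterial-like cells, with 381 and 18 UMIs and a log2 ratio of -4.82 (-5.59 to -4.14). An Nr2f2 UMI was found in 34.3% of thinned venous-like cells against 1.48% of arterial-like cells. The arterial-like share was below the 2.94% of barcodes with an Epcam UMI and no Cdh5 or Pecam1 UMI. Whether these few UMIs are background was not tested. The SOXF genes split. Sox17 was at 717 CPM (682 to 753) in arterial-like and 171 CPM (151 to 192) in venous-like cells, with a log2 ratio of 2.07 (1.89 to 2.26). Sox18 was at 428 CPM (401 to 456) against 184 CPM (164 to 206), with a log2 ratio of 1.21 (1.03 to 1.40). Sox7 was at 87.8 CPM (75.9 to 101) against 88.9 CPM (75.2 to 104), and the interval of its log2 ratio of -0.02 ran from -0.33 to 0.30 and thus included 0.

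The netrin receptor Unc5b had few UMIs but a large difference. Arterial-like cells held 167 Unc5b UMIs (75.2 CPM, 64.2 to 87.5) and venous-like cells held 6 (3.60 CPM, 1.32 to 7.85), which is 20.9-fold, with a log2 ratio of 4.38 (3.23 to 5.85). Of thinned cells, 12.6% of arterial-like and 0.317% of venous-like cells had a UMI. The venous-like share was below the 1.62% of the Epcam-positive barcodes, and whether it is background was not tested. Arterial-like cells also had higher sums than venous-like cells for the immediate early and heat shock list (9411 against 5371 CPM), and the lower median depth (2944.5 against 4238.0 UMIs per cell). The part of the list in the ratios was not tested. In the 541 arterial-like and 315 venous-like cells that reached 1900 UMIs, thinned to that depth, 5 of the 7 genes were at least 2-fold apart, against 19.8% of the genes tested.

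The ratios were also formed between single clusters of each type, and the sum of the list differed in these pairs too. Between the Gja5-led arterial-like and the Ackr1-led venous-like cluster (3000 and 1537 CPM of the list), the log2 ratio was 4.21 for Efnb2, 5.17 for Unc5b, 2.58 for Sox17, 1.25 for Sox18 and -6.19 for Nr2f2. Between the S100a4-led arterial-like and the Selp-led venous-like cluster (18938 and 11962 CPM), the log2 ratio was 3.04 for Efnb2, 3.70 for Unc5b, 1.34 for Sox17, 1.28 for Sox18 and -3.35 for Nr2f2. In each pair 4 of the 7 genes were thus at least 2-fold higher, with backgrounds of 9.28% and 11.1%, and 1 was at least 2-fold lower, with backgrounds of 6.18% and 7.23%. The log2 ratio of Ephb4 was -0.87 (-1.22 to -0.52) in the Gja5-led and Ackr1-led pair. In the S100a4-led and Selp-led pair it was -0.23, with an interval that included 0 (-0.73 to 0.28). Sox7 was at 0.02 and -0.12, with intervals that included 0.

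**Figure D1:**
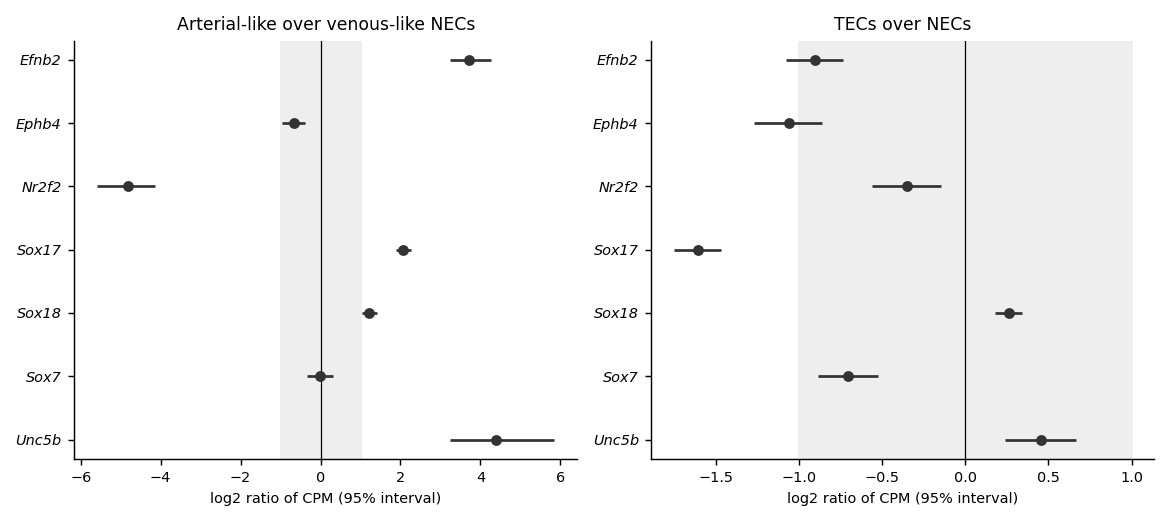
Log2 ratio of CPM of each gene between arterial-like and venous-like NECs (left) and between TECs and NECs (right), with points for the ratio, bars for the 95% conditional binomial interval and a gray band for differences of less than 2-fold; the axes differ in range. Efnb2, Unc5b, Sox17 and Sox18 lie right of the band and Nr2f2 left of it in the vessel comparison, and in the tumor comparison Sox17 (-1.61) and Ephb4 (-1.06) lie left of it.

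Efnb2 lies on chromosome 8 of GRCm38 (8617434 to 8661242, minus strand, GENCODE M21), Ephb4 on chromosome 5 (137350109 to 137378669, plus strand), Nr2f2 on chromosome 7 (70351944 to 70366735, minus strand) and Unc5b on chromosome 10 (60762593 to 60831581, minus strand). The SOXF genes lie on chromosome 1 (Sox17, 4490931 to 4497354, minus strand), chromosome 2 (Sox18, 181669836 to 181671640, minus strand) and chromosome 14 (Sox7, 63943673 to 63950732, plus strand). The 3 genes with the largest ratios between arterial-like and venous-like cells are shown with the 250 bases before their start in RefSeq (build GRCm38.p6), 5′ to 3′ on the strand of the gene. The promoter table held 4 of the 7 genes. Capitals mark matches, on either strand, to the letters TGGGAA (RBPJ, the DNA-binding partner of Notch), ACAAT (SOX factors), AGGTCA (a half-site of COUP-TF receptors such as Nr2f2), GGAA (the core of ETS factors), GATAA (GATA factors) and CCAAT (the CCAAT box). The RBPJ letters contain those of the ETS core.
Efnb2, chr8:8661243-8661492, minus strand: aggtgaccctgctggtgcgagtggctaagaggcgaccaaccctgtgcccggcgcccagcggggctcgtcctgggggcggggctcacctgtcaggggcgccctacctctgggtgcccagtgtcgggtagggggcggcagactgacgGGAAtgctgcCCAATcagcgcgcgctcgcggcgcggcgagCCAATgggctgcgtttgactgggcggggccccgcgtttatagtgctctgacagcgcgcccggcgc
Unc5b, chr10:60831582-60831831, minus strand: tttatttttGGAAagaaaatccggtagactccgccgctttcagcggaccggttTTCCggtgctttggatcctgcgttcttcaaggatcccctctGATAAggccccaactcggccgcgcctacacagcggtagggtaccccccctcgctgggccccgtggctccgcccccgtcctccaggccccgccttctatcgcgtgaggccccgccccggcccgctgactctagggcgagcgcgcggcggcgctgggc
Nr2f2, chr7:70366747-70366996, minus strand: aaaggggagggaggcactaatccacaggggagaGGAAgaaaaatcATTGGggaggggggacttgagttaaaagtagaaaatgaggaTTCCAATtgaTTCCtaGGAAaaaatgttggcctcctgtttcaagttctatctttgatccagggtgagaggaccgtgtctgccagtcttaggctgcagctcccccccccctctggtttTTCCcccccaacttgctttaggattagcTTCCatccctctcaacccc
The Efnb2 window held 1 GGAA and 2 CCAAT matches, the Unc5b window 2 GGAA and 1 GATAA, and the Nr2f2 window 6 GGAA and 2 CCAAT. The RBPJ, SOX and COUP-TF letters had no match in these windows or in that of Ephb4, which says only that these letters are absent from these stretches. Of all 32851 RefSeq windows of the same length, the ETS core was in 93.4%, the CCAAT box in 33.8%, the SOX letters in 27.7%, the GATA letters in 22.6%, the RBPJ letters in 21.6% and the COUP-TF half-site in 14.0%. GC content was 72.0% in the Efnb2 window, 66.8% in that of Unc5b and 50.0% in that of Nr2f2.

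The order of the clusters by level showed which vessels held each gene beyond these types. Efnb2 was at 316 CPM (287 to 348) in the Gja5-led and 242 CPM (211 to 276) in the S100a4-led arterial-like cluster, ahead of the Hspa1a-led unnamed cluster at 174 CPM (147 to 204). It was lowest in the venous-like clusters led by Selp (29.4 CPM) and Ackr1 (17.1 CPM), and the median over the 17 clusters was 120 CPM. Capillary-like cells lay in between at 114 CPM (102 to 126). Of the 16 pairs of neighbors in the Efnb2 order, 13 did not differ beyond their counting error. Of the 17 clusters, 16 are described one by one here. Among these, Nr2f2 was at 278 CPM (223 to 342) in the pericyte- or smooth muscle-like cluster of 47 cells and at 276 CPM (245 to 309) in the Ackr1-led venous-like cluster, which did not differ beyond counting error. Next came the Selp-led venous-like cluster at 149 CPM (120 to 183), and the lowest level was 3.76 CPM (1.22 to 8.79) in the Gja5-led arterial-like cluster. HEV-like cells, which belong to venules, were at 48.2 CPM (33.9 to 66.4) of Nr2f2, close to the 44.9 CPM (38.0 to 52.7) of capillary-like cells.

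Ephb4 varied least between clusters, from 37.4 CPM in the pericyte- or smooth muscle-like to 160 CPM (136 to 186) in the Ackr1-led venous-like cluster, and its highest level was 4.26 times its lowest. It was detected in all vessel types, arterial-like cells included. Over the same 16 clusters, Sox17 ranged from 109 CPM (92.9 to 127) in the unnamed cluster led by Meis2 to 803 CPM (755 to 852) in the Gja5-led arterial-like cluster, and Sox18 from 76.8 CPM (56.4 to 102) in the Selp-led venous-like cluster to 590 CPM (549 to 632) in the Gja5-led cluster. Both were thus highest in the same arterial-like cluster, while the second level of Sox18 (484 CPM, 450 to 521) was that of the Meis2-led cluster, where Sox17 was lowest. Sox7 ranged from 37.2 CPM (28.1 to 48.3) in the Meis2-led cluster to 201 CPM (172 to 234) in the Hspa1a-led cluster. Unc5b was at 85.0 CPM (67.0 to 106) in the S100a4-led arterial-like and 79.6 CPM in the Gpr160-led capillary-like cluster, which did not differ beyond counting error. Its highest value, 132 CPM (70.1 to 225) in the salivary-like cluster, rests on cells with a median of 779 UMIs. Taken over both clusters, capillary-like cells held Unc5b at 65.7 CPM (57.3 to 75.0), against 75.2 CPM in arterial-like cells.

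**Figure D2:**
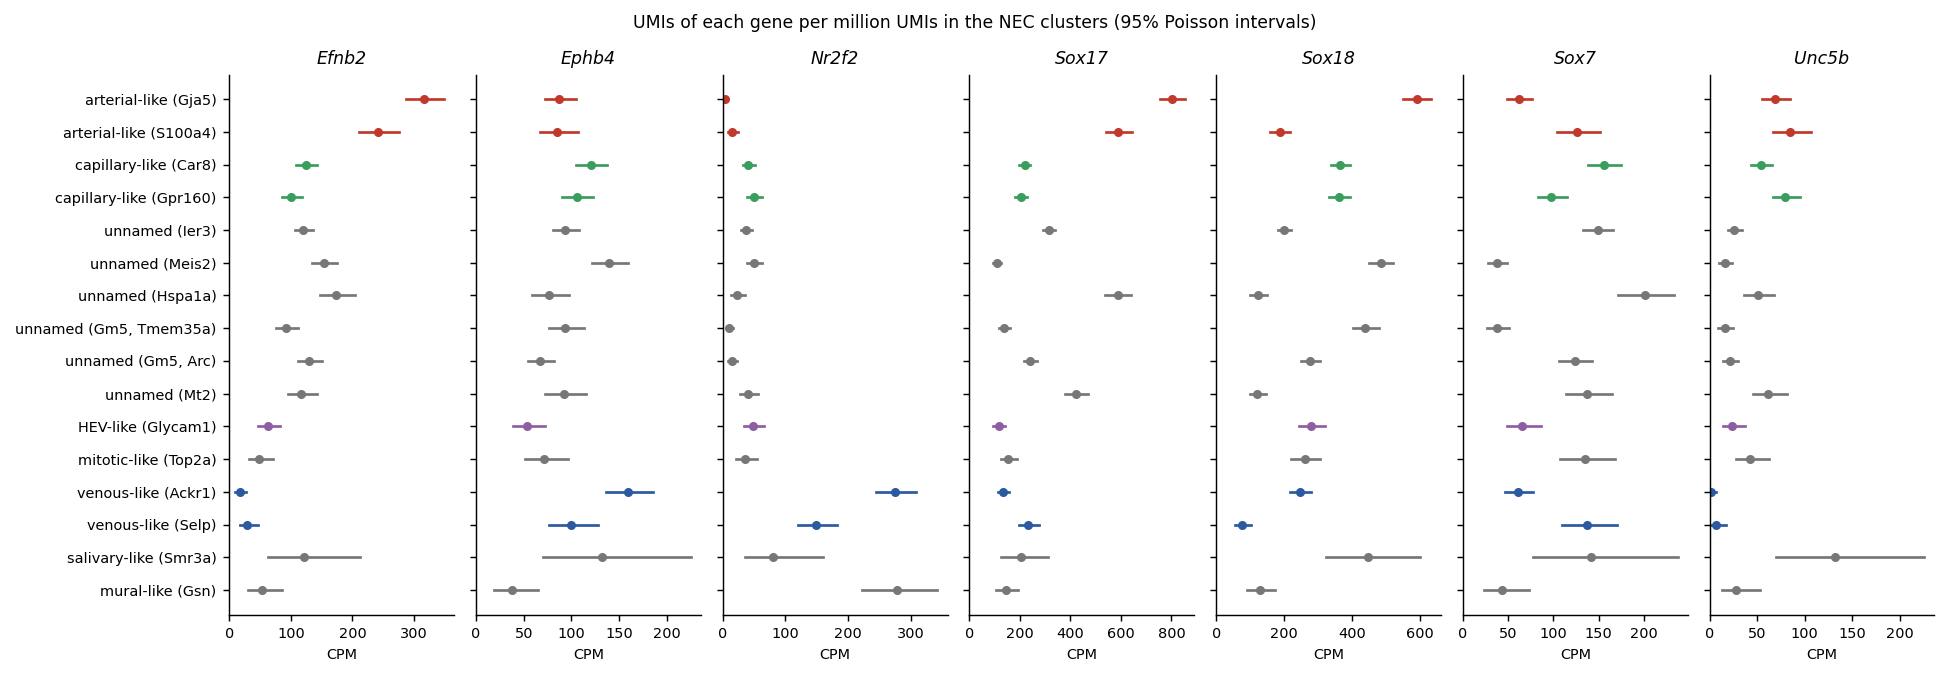
CPM of each gene (horizontal axes, a separate linear scale for each gene) in 16 of the 17 NEC clusters (rows, with the leading gene in parentheses; the mural-like row is the pericyte- or smooth muscle-like cluster), with points for the level and bars for the 95% Poisson interval. Efnb2 and Sox17 are highest in the arterial-like rows (red), Nr2f2 is high in the venous-like rows (blue) and the mural-like row (278 CPM), and Ephb4 varies little from row to row.

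Sorting NECs by their own markers without clusters gave the same directions for all but Sox7, whose log2 ratio was 0.07 (-0.29 to 0.43). Cells with a Gja5 or Bmx UMI and none of Lbp or Ackr1 (370 cells) were compared with cells of the opposite kind (383 cells), and 4 of the 7 genes were at least 2-fold higher (background 8.58%) and 1 at least 2-fold lower (background 7.49%). The log2 ratios were 2.87 (2.52 to 3.24) for Efnb2, 2.60 (1.88 to 3.38) for Unc5b and -2.54 (-3.01 to -2.11) for Nr2f2. These 3 ratios were smaller in size than those between clusters, and those of Sox17 (2.31, 2.10 to 2.51) and Sox18 (1.26, 1.08 to 1.45) were not. In the 31 cells with UMIs of both kinds, Nr2f2 was at 198 CPM (140 to 272), like the cells with venous markers alone (196 CPM, 178 to 216), and Efnb2 was at 109 CPM (67.7 to 167), between the 276 and 37.8 CPM of the cells with only one kind. Whether these are single cells was not tested.

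Within a vessel type, the SOXF genes differed between clusters, and not in the same direction. Sox18 was lower in the S100a4-led than in the Gja5-led arterial-like cluster (187 against 590 CPM, log2 ratio -1.66, -1.91 to -1.41), while Sox7 was higher (126 against 61.7 CPM, log2 ratio 1.03, 0.61 to 1.46) and Sox17 was lower (590 against 803 CPM, log2 ratio -0.44, -0.60 to -0.29). Between the venous-like clusters, Sox18 was lower in the Selp-led than in the Ackr1-led one (76.8 against 247 CPM, log2 ratio -1.69, -2.17 to -1.23). There, Sox7 was at 137 against 60.8 CPM (log2 ratio 1.17, 0.69 to 1.67) and Sox17 at 234 against 134 CPM (log2 ratio 0.80, 0.46 to 1.15). So Sox18 was lower where Sox7 was higher in both vessel types, while Sox17 was lower in one pair and higher in the other. The share of genes that were at least 2-fold lower was 10.2% in the arterial-like and 8.61% in the venous-like pair, with 6.10% and 5.59% at least 2-fold higher.

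Sox18 was also lower and Sox7 higher in 3 further pairs of NEC clusters, which, like the arterial-like and venous-like pairs, were picked after their levels had been seen. Sox18 was lower in the Hspa1a-led unnamed than in the Car8-led capillary-like cluster (122 against 364 CPM, log2 ratio -1.57, -1.88 to -1.27), and Sox17 was higher (588 against 219 CPM, log2 ratio 1.43, 1.23 to 1.62). Sox7 was higher by less than 2-fold (log2 ratio 0.37, 0.09 to 0.65). In the Mt2-led unnamed cluster, Sox18 was lower than in the Gpr160-led capillary-like cluster (121 against 362 CPM, log2 ratio -1.59, -1.91 to -1.28), and Sox17 was higher (423 against 203 CPM, log2 ratio 1.06, 0.84 to 1.29). There too, Sox7 was higher by less than 2-fold (log2 ratio 0.49, 0.13 to 0.86). Of the unnamed clusters that share Gm5, Penk and Pacsin1 as leading genes, the one with Arc had less Sox18 than the one with Tmem35a (275 against 439 CPM, log2 ratio -0.67, -0.87 to -0.48) and more Sox7 (124 against 37.5 CPM, log2 ratio 1.72, 1.23 to 2.24). In this pair Sox17 was higher by less than 2-fold (log2 ratio 0.81, 0.54 to 1.10). The background for at least 2-fold lower was 8.47%, 8.32% and 6.88% in these 3 pairs, and for at least 2-fold higher 5.85%, 4.25% and 6.18%. A list of 10 immediate early and heat shock genes (Fos, Fosb, Jun, Junb, Egr1, Atf3, Ier2, Hspa1a, Hspa1b and Dnajb1), which cells switch on within minutes of a stimulus or of handling, differed between the same clusters. Its sum was 18938 against 3000 CPM in the arterial-like pair and 11962 against 1537 CPM in the venous-like pair. In the other pairs it was 25756 against 1218, 20947 against 2197 and 20047 against 1739 CPM. The list was added after the data were seen. The Hspa1a-led cluster has Hspa1a, Hspa1b, Atf3, Egr1 and Fosb of the list among its top 10 genes by fold. The high sum of that cluster is therefore not a separate observation. Across the 16 clusters of at least 50 cells, which come from 1 library, the list had a Pearson r of -0.61 with Sox18, 0.46 with Sox17 and 0.38 with Sox7 on the log2(CPM + 10) scale. The Meis2-led cluster went against that order, with a list sum of 10430 CPM and Sox18 at 484 CPM. The part of this list in the SOXF levels was not tested.

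**Figure D3:**
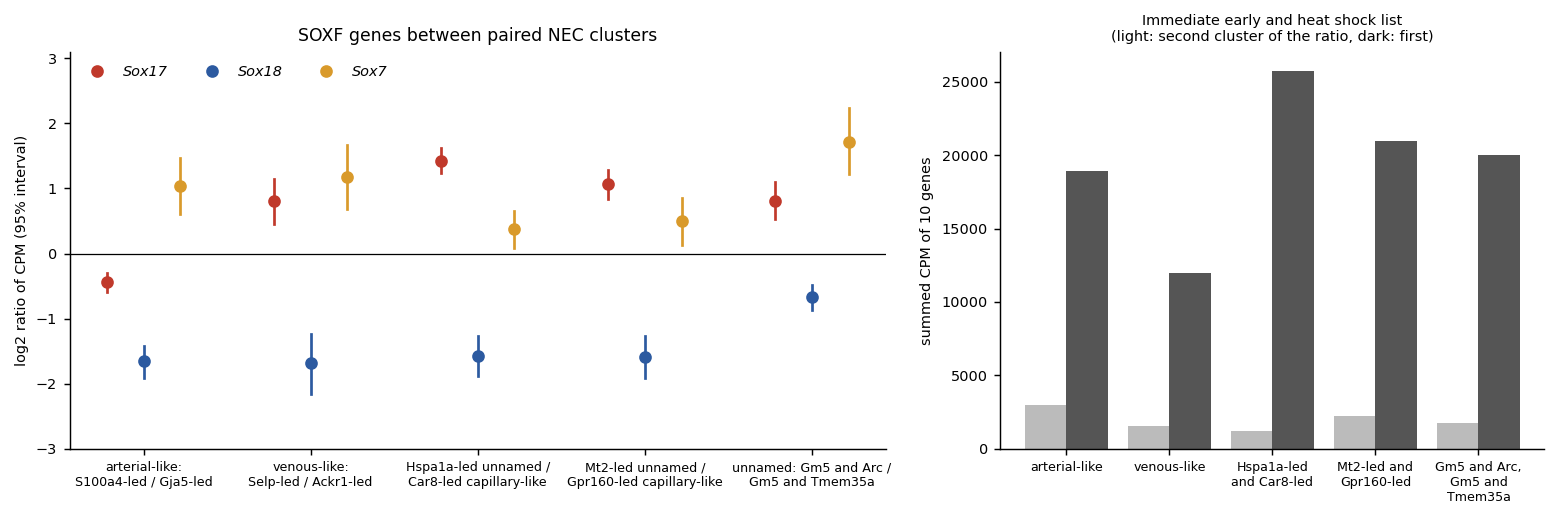
Left, log2 ratio of CPM of Sox17, Sox18 and Sox7 between 5 pairs of NEC clusters, with bars for the 95% conditional binomial interval. Right, summed CPM of 10 immediate early and heat shock genes in the same clusters, with the first cluster of each ratio in dark gray. Sox18 lies below 0 and Sox7 above 0 in all 5 pairs, Sox17 lies below 0 in the arterial-like pair, and the dark bars, from 11962 to 25756 CPM, are above the light ones.

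Single cells rarely held both Efnb2 and Nr2f2. Of 3831 thinned NECs, 779 had an Efnb2 UMI, 337 an Nr2f2 UMI and 29 both, where the product of the single shares gives 68.5 cells (0.42 of the product). Nr2f2 and Unc5b were found together in 11 cells, against 22.7 from the product (0.48). The pairs with the highest observed over product were Efnb2 with Unc5b (91 cells against 52.5, or 1.73 times), Ephb4 with Nr2f2 (79 against 60.3, or 1.31 times) and Sox17 with Unc5b (110 against 85.3, or 1.29 times). Sox18 with Unc5b (127 against 104, or 1.22 times) and Efnb2 with Sox17 (299 against 258, or 1.16 times) also had shares whose intervals lay above the product. Ligand and receptor, Efnb2 and Ephb4, were found together in 112 cells, against 139 from the product (0.80). Sox17 and Sox18 were found together in 537 cells, 1.05 times the product. In the 239 thinned TECs, no pair reached more than 22 cells, and Efnb2 and Nr2f2 were found together in 1 cell, against 1.51 from the product, which is too few to set against NECs.

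The other genes of the pathways, from lists that were fixed by name, were counted in the same vessel comparison. Over all genes tested there, 8.64% were at least 2-fold higher and 6.88% at least 2-fold lower in arterial-like cells. Of 20 genes of arterial specification, 17 were tested and 10 were at least 2-fold higher in arterial-like cells. They include the Notch ligands Dll4 (233 against 15.6 CPM, log2 ratio 3.90), Jag2 (284 against 46.3 CPM, log2 ratio 2.62) and Jag1 (175 against 37.2 CPM, log2 ratio 2.23), the receptors Notch4 (140 against 15.6 CPM, log2 ratio 3.16) and Notch1 (311 against 144 CPM, log2 ratio 1.11), and the Notch target Hey1 (237 against 2.40 CPM, 527 against 4 UMIs, log2 ratio 6.63). The others were Mecom (log2 ratio 2.12), Smad6 (2.75), Hes1 (1.10) and Acvrl1 (1.09). The forkhead gene Foxc1 was at least 2-fold lower (24.8 against 108 CPM, log2 ratio -2.12), and the VEGF receptor genes Kdr and Nrp1 were within 2-fold, with log2 ratios of -0.15 and -0.09. The median of this list was 1.10. Of 10 genes of venous specification, 9 were tested and 4 were at least 2-fold lower in arterial-like cells: Nr2f2, the apelin receptor Aplnr (12.6 against 323 CPM, log2 ratio -4.68), the semaphorin and VEGF-C coreceptor Nrp2 (36.0 against 418 CPM, log2 ratio -3.54) and the sialomucin Emcn (370 against 1006 CPM, log2 ratio -1.44). Gata2, placed on the venous list as a regulator of Nr2f2, was higher in arterial-like cells (154 against 36.0 CPM, log2 ratio 2.09, 1.70 to 2.52). The list's median was -0.67.

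Of the 12 SOX genes, 7 were tested and 5 were at least 2-fold higher in arterial-like cells. The backgrounds for these lists are again 8.64% at least 2-fold higher and 6.88% at least 2-fold lower. Beside Sox17 and Sox18 the higher SOX genes were Sox13 (83.7 against 17.4 CPM, log2 ratio 2.26), Sox11 (48 UMIs against 1, log2 ratio 5.17, 2.62 to 10.50) and Sox6, with 40 UMIs against 0, which is at least 9.99-fold higher with 3 UMIs over the group taken as the floor. Sox4 was at least 2-fold lower (29.7 against 102 CPM, log2 ratio -1.78). Among 8 ephrins, 4 were tested, and Efna1 (221 against 81.1 CPM, log2 ratio 1.45) and Efna5 (47 UMIs against 0, at least 11.7-fold higher) joined Efnb2, while Efnb1 had a log2 ratio of 0.51. Of 12 Eph receptors, 3 were tested, and Epha4 was at least 2-fold higher in arterial-like cells (135 against 56.5 CPM, log2 ratio 1.26). Among 18 genes of netrin, UNC5, Robo and Slit guidance, 8 were tested, and the netrins Ntn4 (57 against 3 UMIs, log2 ratio 3.83, 2.21 to 6.15) and Ntn1 (27.9 against 9.61 CPM, log2 ratio 1.54) were higher together with Unc5b. Flrt2, whose product is a ligand of UNC5 receptors, was lower (1.80 against 19.8 CPM, log2 ratio -3.46). Of the 3 COUP-TF genes, 2 were tested, and beside Nr2f2 (lower) Nr2f6 was at 51.8 against 51.7 CPM.

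The genes most like each of the 7 in their pattern were sought over the same 16 clusters, among 5747 genes with at least 50 CPM in 1 or more of them, by Pearson r of log2(CPM + 10). For Efnb2 these were Msx1 (0.82), Gata2 (0.81) and Hey1 (0.81), and for Nr2f2 they were Rasa4 (0.87), Fgl2 (0.86) and the venous marker Lbp (0.84). Sox17 was most like Mast4 (0.89), Bclaf3 (0.82) and Cltb (0.80), and Unc5b was most like Arhgef28, Agap1 (both 0.89) and Map4k2 (0.88). Sox18 was most like Dpp8, Rab12 (both 0.84) and Med29 (0.83), and Sox7 was most like AC160336.1 (0.88), Spag9 and Kansl1l (both 0.85). Ephb4, with the narrowest range of the 7 by fold, was most like Ndufa6 (0.83), Ube3a and Arhgef10 (both 0.81). No gene of the 7 was among the 3 most like another. Between themselves, Efnb2 and Unc5b had an r of 0.67 and Ephb4 and Nr2f2 one of 0.63, while Efnb2 and Nr2f2 had -0.62, and Nr2f2 and Sox17 also had -0.62. The clusters share a library and differ in depth, so these values are a description.

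In TECs, Sox17 and Ephb4 were at least 2-fold lower than in NECs, and none of the 7 genes was at least 2-fold higher. The background over 8827 genes was 19.7% at least 2-fold lower and 11.0% at least 2-fold higher, or 30.7% in either direction, and the median log2 ratio was -0.70 over the 7 genes and -0.12 over all genes tested. Sox17 was at 95.6 CPM (86.9 to 105) in TECs and 291 CPM (283 to 299) in NECs, which is 3.04-fold lower, with a log2 ratio of -1.61 (-1.75 to -1.47). Ephb4 was at 47.8 CPM (41.7 to 54.5) against 99.7 CPM (95.1 to 105), with a log2 ratio of -1.06 (-1.27 to -0.86). Relative to the median of all genes, the value for Ephb4 was -0.94, which is less than 2-fold, and that for Sox17 was -1.49.

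The ligand of Ephb4 was lower in TECs as well, by less than 2-fold. Efnb2 was at 68.9 CPM (61.5 to 76.8) against 129 CPM (124 to 134), with a log2 ratio of -0.91 (-1.08 to -0.74). Sox7 was at 64.8 CPM (57.7 to 72.5) against 105 CPM (101 to 110), with a log2 ratio of -0.70 (-0.88 to -0.53), and Nr2f2 at 50.4 CPM (44.1 to 57.2) against 64.3 CPM (60.6 to 68.2), with a log2 ratio of -0.35 (-0.56 to -0.15). Sox18 and Unc5b went the other way, by less than 2-fold. Sox18 was at 364 CPM (346 to 381) in TECs against 303 CPM (295 to 312) in NECs, with a log2 ratio of 0.26 (0.18 to 0.34), and Unc5b at 54.7 CPM (48.2 to 61.8) against 39.9 CPM (37.0 to 43.0), with a log2 ratio of 0.46 (0.24 to 0.66). In barcodes of the tumor library with cancer markers and no Cdh5 or Pecam1 UMI, Unc5b was at 50.0 CPM, and its part in this ratio was not tested.

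At equal depth the shares of cells followed the same order. A Sox17 UMI was found in 33.1% of thinned NECs (31.6 to 34.6%) and 16.7% of thinned TECs (12.2 to 22.1%), an Efnb2 UMI in 20.3% and 10.0%, and an Ephb4 UMI in 17.9% and 8.79%. For Sox7 the shares were 18.0% and 11.3%, for Nr2f2 8.80% and 6.28%, for Sox18 40.5% and 46.9%, and for Unc5b 6.73% (5.96 to 7.57%) and 12.6% (8.63 to 17.4%). The intervals of NECs and TECs overlapped for Nr2f2 and Sox18 and were apart for the other 5 genes. Without thinning, and thus with the gap in depth, the shares in NECs and TECs were 43.2% and 59.4% for Sox17 and 29.5% and 43.7% for Efnb2, so that their order was reversed. In the thinned cells 4 of the 7 genes were at least 2-fold apart, with Efnb2 at -1.02 and Unc5b at 1.09, against 32.2% of the genes tested.

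**Figure D4:**
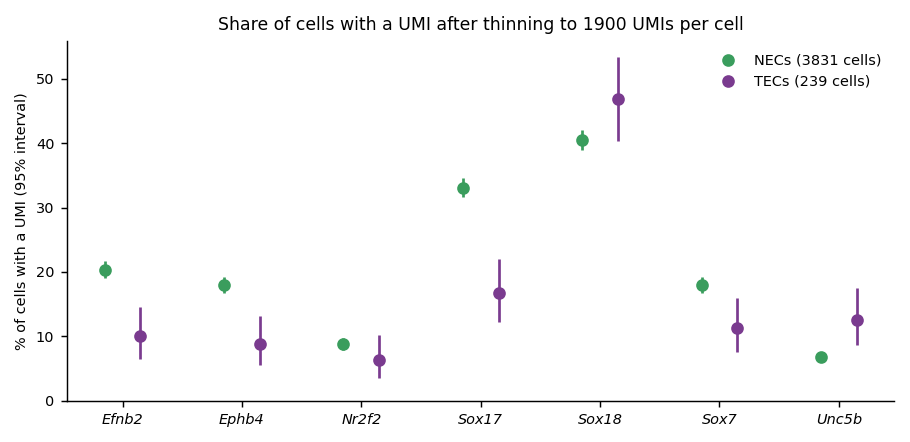
Share of cells (vertical axis, percent) with at least 1 UMI of each gene after thinning to 1900 UMIs per cell, for 3831 NECs and 239 TECs, with bars for the 95% Clopper-Pearson interval. The TEC point is lower for Efnb2, Ephb4, Sox17 and Sox7, higher for Unc5b, and the bars overlap for Nr2f2 and Sox18.

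Several other measures differed between the libraries. The immediate early and heat shock list was at 2532 CPM in TECs and 9824 CPM in NECs, with all 10 genes detected in both. The arterial marker list, with 10 of 10 genes detected in each, was at 238 against 1230 CPM, and the venous list, with 8 of 8, at 777 against 1210 CPM. Bmx was at 1.08 CPM in TECs against 18.9 in NECs, Lbp at 1.72 against 29.1 and Ackr1 at 7.53 against 99.4. Markers of dividing cells (Top2a, 74.0 against 21.2 CPM) and of tip cells (Apln, 533 against 13.0 CPM) were higher in TECs. Rgs5, a pericyte marker, was at 2.80 against 107 CPM, and the pericyte or smooth muscle list, with 7 of 8 genes detected in each and Myh11 at 0, at 52.9 against 256 CPM. Salivary genes summed to 2058 CPM in NECs, while the tumor table lists 1 of them, at 0. The part of vessel type, handling or other cells in the ratios was not tested as a cause, but values without some of these cells were computed. Without cells that held a UMI of Rhox5, Hmga2, Krt8, Top2a or Mki67 the log2 ratio of Sox17 was -1.42 and that of Ephb4 -1.09.

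Most ratios depended on which normal cells were compared. Against capillary-like NECs alone, whose immediate early and heat shock sum of 1668 CPM was nearer to that of TECs, Sox17 was lower in TECs (log2 ratio -1.15, -1.32 to -0.97), as were Ephb4 (-1.25, -1.49 to -1.01), Sox7 (-0.99, -1.21 to -0.78) and Efnb2 (-0.72, -0.94 to -0.50). Sox18 had a ratio of 0.00 (-0.11 to 0.11), Nr2f2 of 0.17 (-0.14 to 0.47) and Unc5b of -0.27 (-0.53 to 0.00). Of the 7 genes, Sox17 and Ephb4 were at least 2-fold lower, where the background was 21.3%, and none was at least 2-fold higher (14.0%). Capillary-like NECs, with Sox17 at 211 CPM, leave out the unnamed clusters with capillary markers. Of those, the Hspa1a-led held Sox17 at 588, the Mt2-led at 423 and the Meis2-led at 109 CPM. Against arterial-like NECs, TECs were lower for Sox17 (-2.91, -3.06 to -2.75) and Efnb2 (-2.06, -2.25 to -1.86) and higher for Nr2f2 (2.64, 1.94 to 3.42), with backgrounds of 21.0% lower and 14.4% higher. Against venous-like NECs they were higher for Unc5b (3.92, 2.78 to 5.38) and Efnb2 (1.67, 1.17 to 2.21) and lower for Nr2f2 (-2.18, -2.43 to -1.95) and Ephb4 (-1.53, -1.80 to -1.25), with backgrounds of 13.8% higher and 17.4% lower. Sox17 was lower in TECs than in venous-like NECs by less than 2-fold (-0.84, -1.05 to -0.62). For Efnb2, Nr2f2, Sox18 and Unc5b, TECs lay between the arterial-like and venous-like levels of the normal gland, and for Ephb4, Sox17 and Sox7 they lay below both. For Sox18 the log2 ratio was -0.23 (-0.35 to -0.12) against arterial-like and 0.98 (0.80 to 1.16) against venous-like NECs. Unc5b was at -0.46 (-0.75 to -0.17) against arterial-like NECs. For Sox7 the log2 ratio was -0.44 (-0.70 to -0.17) against arterial-like and -0.46 (-0.75 to -0.16) against venous-like NECs. These comparisons share the TECs.

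Among TECs, the IFN-like cluster held the highest levels of Sox17, Ephb4 and Sox18. It also had the highest values of Efnb2 and Unc5b, which did not differ beyond counting error from the next cluster in order (68.6 CPM of Efnb2 in the shallow unnamed and 66.3 CPM of Unc5b in the tip-like cluster). Sox17 was at 143 CPM (126 to 161) there, against 67.2 CPM (52.7 to 84.5) in tip-like and 66.4 CPM (54.2 to 80.7) in mitotic-like cells, which did not differ from each other beyond counting error. Efnb2 was at 95.4 CPM (81.8 to 111) in IFN-like, 51.5 CPM (38.9 to 66.9) in tip-like and 49.5 CPM (39.0 to 62.0) in mitotic-like cells. Against all other TECs, IFN-like cells had log2 ratios of 1.14 (0.86 to 1.42) for Sox17, 1.00 (0.64 to 1.38) for Unc5b and 0.89 (0.56 to 1.21) for Efnb2. Of the 7 genes, Sox17 and Unc5b were at least 2-fold higher, where the background was 4.90% (5.77% at least 2-fold lower), and Nr2f2 was the only gene whose interval did not lie above 0 (-0.14, -0.54 to 0.25). Beside interferon genes, this cluster met the marker limits for arterial Sema3g and Fbln5, venous Vwf and Vcam1 and capillary Cd300lg. The part of vessel type in these levels was not tested.

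Mitotic-like TECs stood out for low Unc5b and for Nr2f2. Unc5b was at 19.5 CPM (13.2 to 27.9) there, against 78.5 CPM (66.2 to 92.4) in IFN-like and 66.3 CPM (51.9 to 83.5) in tip-like cells, with a log2 ratio over other TECs of -1.88 (-2.48 to -1.33) and a background of 6.28% at least 2-fold lower and 6.97% at least 2-fold higher. Nr2f2 was at 67.7 CPM (55.4 to 82.1) in mitotic-like, 47.4 CPM (38.0 to 58.5) in IFN-like and 37.7 CPM (27.1 to 51.2) in tip-like cells. Tip-like TECs had the lowest Ephb4 of the deeper clusters (26.7 CPM, 17.9 to 38.3, log2 ratio over other TECs -1.02, -1.64 to -0.45, background 6.17% lower and 4.20% higher) and Sox7 at 86.5 CPM (69.9 to 106), which did not differ beyond counting error from the 77.4 CPM of IFN-like cells. Sox18 varied least, from 227 CPM in the shallow unnamed cluster and 326 CPM (298 to 356) in mitotic-like to 413 CPM (384 to 443) in IFN-like cells. The shallow cluster had 2 UMIs each of Ephb4 and Nr2f2 and wide intervals for all 7 genes. Between mitotic-like TECs and mitotic-like NECs (52 and 89 cells), Efnb2 had a log2 ratio of 0.01 (-0.62 to 0.68), Nr2f2 of 0.93 (0.25 to 1.68) and Unc5b of -1.11 (-1.93 to -0.29), so that Nr2f2 and Unc5b stood opposite to the direction over all cells and the interval of Efnb2 included 0, while Sox17 was at -1.21 (-1.63 to -0.79) and Sox7 at -1.79 (-2.30 to -1.29). In that comparison Sox17, Sox7 and Unc5b were at least 2-fold lower, where the background was 15.9%, and none was at least 2-fold higher (9.96%).

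**Figure D5:**
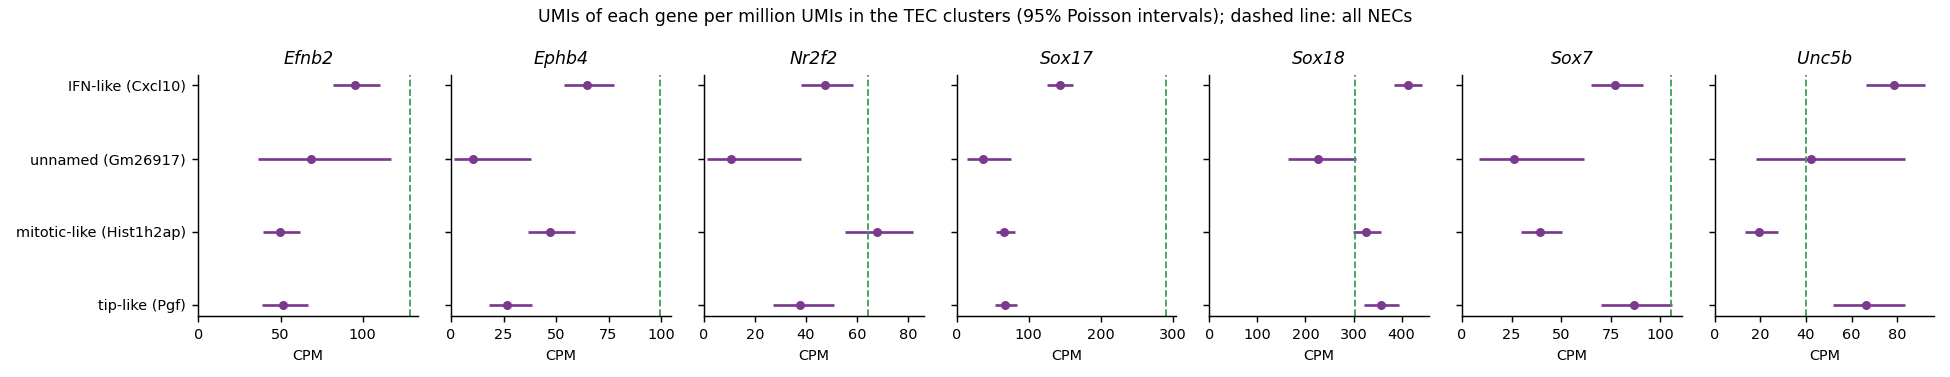
CPM of each gene (horizontal axes, a separate linear scale for each gene) in the 4 TEC clusters (rows, with the leading gene in parentheses), with points for the level, bars for the 95% Poisson interval and a dashed line at the level over all NECs. Sox17 lies left of the dashed line in all 4 rows and is highest in the IFN-like row (143 CPM), and Unc5b is lowest in the mitotic-like row (19.5 CPM).

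For Efnb2, Unc5b, Sox17 and Nr2f2, a difference of at least 2-fold between arterial and venous markers was also seen inside the tumor library, in few cells. With the markers used for NECs, 14 TECs had a Gja5 or Bmx UMI and no Lbp or Ackr1 UMI, 14 were of the opposite kind and 1 had both. Efnb2 was at 172 CPM (126 to 229) in the first and 32.0 CPM (16.0 to 57.3) in the second kind, with a log2 ratio of 2.42 (1.45 to 3.52). Nr2f2 was at 14.9 CPM (4.07 to 38.3) against 169 CPM (128 to 218), with a log2 ratio of -3.50 (-5.42 to -2.06). Unc5b had 33 UMIs against 1, with a log2 ratio of 5.40 (2.83 to 10.75), and Sox17 was at 224 CPM (171 to 289) against 69.9 CPM (44.8 to 104), with a log2 ratio of 1.68 (0.98 to 2.43). Sox18 (0.36, 0.01 to 0.71), Sox7 (0.25, -0.95 to 1.45) and Ephb4 (0.07, -0.91 to 1.04) were within 2-fold. In all, 3 genes were at least 2-fold higher (background 9.10%) and 1 at least 2-fold lower (background 6.06%). Efnb2, Unc5b, Sox17 and Nr2f2 thus had the direction of the normal gland, and the difference in Sox18 was smaller than the 1.21 between arterial-like and venous-like NECs. The 28 cells are 1 library, and 1 deep cell can carry much of such a sum.

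The pathway lists were mostly lower in TECs, as were all genes tested at the median. Over all genes tested, 19.7% were at least 2-fold lower in TECs and 11.0% at least 2-fold higher. Of the 17 tested genes of arterial specification, 6 were at least 2-fold lower and none higher: Nrp1 (203 against 1148 CPM, log2 ratio -2.50), Foxc1 (5.60 against 31.3 CPM, -2.48), Smad6 (10.3 against 31.0 CPM, -1.58), Kdr (417 against 1144 CPM, -1.46), Hey1 (29.7 against 68.1 CPM, -1.20) and Notch1 (96.6 against 211 CPM, -1.13). Dll4 (218 against 122 CPM, log2 ratio 0.83) and Notch4 (110 against 80.0 CPM, log2 ratio 0.46) were higher by less than 2-fold. The median of the list was -0.84. Of the 9 tested venous genes, 4 were at least 2-fold lower, with the angiopoietin receptor gene Tek (55.5 against 186 CPM, log2 ratio -1.74), Gata2 (26.3 against 78.1 CPM, -1.57) and Nrp2 (76.0 against 207 CPM, -1.44) beside Ephb4, and the median was -0.57.

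Of the 6 tested SOX genes, Sox4 was the only one at least 2-fold higher in TECs (193 against 94.9 CPM, log2 ratio 1.02, 0.90 to 1.14). Backgrounds for the counts of this paragraph are 11.0% higher and 19.7% lower. Sox13 (14.0 against 39.0 CPM, log2 ratio -1.48) and Sox11 (3 against 176 UMIs, log2 ratio -3.98, -6.27 to -2.40) were lower beside Sox17. Among ephrins and their receptors, 1 of 3 tested ephrins and 2 of 3 tested Eph receptors were at least 2-fold lower and none was higher, and Efnb1 (10.8 against 114 CPM, log2 ratio -3.41) and Epha4 (3.87 against 69.0 CPM, log2 ratio -4.15) showed larger differences than Efnb2 and Ephb4. Of the 2 tested COUP-TF genes, neither was 2-fold apart. Of the guidance genes, 3 of 6 tested were at least 2-fold lower in TECs: Slit3 (0 against 241 UMIs, at least 21.5-fold lower), Neo1, a netrin receptor (3 against 206 UMIs, log2 ratio -4.20, -6.49 to -2.64) and Ntn4 (2.80 against 16.5 CPM, log2 ratio -2.56).

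Barcodes that the cell rule left out gave the level outside ECs. In the normal library, 698 barcodes with an Epcam UMI and no Cdh5 or Pecam1 UMI held the 7 genes at 1.08 (Sox7) to 13.5 CPM (Nr2f2), with a median depth of 10806 UMIs, and 0.294 to 3.38% of them had a UMI of a given gene after thinning. Except for Nr2f2 in arterial-like and Unc5b in venous-like cells, the thinned shares in arterial-like and venous-like NECs were above those of the same gene there. This was read against the Epcam-positive barcodes only. Barcodes of the normal library with no UMI of Epcam, Cdh5 or Pecam1 held Nr2f2 at 221 CPM. Their levels of the other 6 genes are given in a later section. In the tumor library, 143 barcodes with a Rhox5, Hmga2 or Krt8 UMI and no Cdh5 or Pecam1 UMI, with a median depth of 40636 UMIs, held Unc5b at 50.0 CPM (44.9 to 55.6) and Nr2f2 at 17.0 CPM (14.0 to 20.3). Their other values were 0 (Sox18) to 5.95 CPM (Sox7). Unc5b was thus about as high in the cancer-like barcodes as in TECs (54.7 CPM), with thinned shares of 11.5% and 12.6%, and the part of cancer cell RNA in the TEC level was not tested. Within TECs, Unc5b was at 123 CPM in the 14 cells with arterial markers alone (33 UMIs). It was at 2.91 CPM in the 14 cells with venous markers alone (1 UMI). What these few cells mean for the part of cancer cell RNA was not tested.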

How the data were processed

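The deposited tables hold UMI counts per gene and cell, which the authors made with Cell Ranger on mm10 (Seurat is also named in the submitters' processing notes, and versions are not given in the sources used here). No normalized values were used. Cells were filtered as described, with Python 3.11.15, numpy 2.4.6, scipy 1.17.1 and pandas 2.3.3. Scrublet (scanpy 1.11.5) called 0 doublets in both libraries, which was not taken to show that there were none, and no doublets were removed. Each library was clustered in Seurat 5.3.0 (R 4.3.3) with log-normalized counts, 20 principal components, 20 neighbors and resolution 0.8, on 3957 of 4000 variable genes in NECs, without the 43 that were under study or on the pathway lists.

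UMIs were summed over cells of a group, and log2 ratios of CPM carry a 95% conditional binomial interval. A gene was tested against the background when it had at least 10 CPM in 1 group and 20 UMIs in both, and counted when at least 2-fold apart. Where a group had no UMI, 3 UMIs over the group were taken as the floor. The ratio and interval code was tested on simulated data. Total UMIs were 40914092 in the normal and 18980858 in the tumor table, over all barcodes.

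The genes named are the 7, every pathway gene at least 2-fold apart in the main comparisons, and the 3 most alike of each. The genes, the 7 pathway lists (74 genes beside the 7) and the 14 marker lists were chosen with earlier results of these data known. The immediate early list, the cluster pairs and 5 of the alternatives were added after the data were seen. A few pathway genes within 2-fold are also given, and were chosen after their values were seen. Promoters came from the RefSeq table of GRCm38.p6, positions from GENCODE M21, and motifs were searched on both strands. Genes annotated as overlapping Efnb2, Ephb4, Nr2f2, Sox17 or Unc5b were not listed in the normal table. Those at Efnb2 and Unc5b lie on the same strand, so reads shared with them cannot be told apart. The ones at Ephb4, Nr2f2 and Sox17 lie on the opposite strand. The levels of 1 unnamed NEC cluster are not reported here, though its cells count in all sums over NECs. Matplotlib 3.10.9 drew the figures.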

Additional observations from a re-analysis of the deposited data

Results flagged for a closer look

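Nr2f2 was found at 221 CPM in 480 barcodes of the normal library that passed the gene and mitochondrial limits but had no UMI of Epcam, Cdh5 or Pecam1 and entered no comparison. This is above its level of 64.3 CPM in NECs, with a log2 ratio of 1.78 (1.61 to 1.95), and close to the 229 CPM of venous-like NECs. The other 6 genes were at 14.2 to 44.3 CPM in these barcodes.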

How the results depend on the processing

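Between arterial-like and venous-like NECs, 5 of the 7 genes were at least 2-fold apart under all 16 alternatives (other resolutions and numbers of components, own markers, thinning, scaling and cell filters), and all but Sox7 kept their sign. Efnb2 ranged from 2.69 to 4.29, Nr2f2 from -6.19 to -2.54, Unc5b from 2.60 to 5.90 and Sox7 from -0.14 to 0.16. Ephb4 ranged from -0.87 to -0.23. The value of -0.23 was between the S100a4-led and Selp-led clusters, and its interval included 0 (-0.73 to 0.28). Between TECs and NECs, the count of 2 was 1 when scaled to the median of all genes tested (without Ephb4), 4 when thinned to 1900 UMIs (with Efnb2 and Unc5b), 3 under 5% mitochondrial UMIs (with Efnb2 at -1.14) and 3 between mitotic-like cells (Sox17, Sox7 and Unc5b, with Ephb4 at -0.60), and Sox17 stayed at least 2-fold lower in all 14 alternatives (-1.80 to -1.21). These 14 do not include the comparisons with single normal vessel types, where Sox17 was at -1.15 against capillary-like and -0.84 against venous-like NECs. With mitotic-like cells alone, Nr2f2 was at 0.93 and Unc5b at -1.11, against the direction over all cells, and Efnb2 was at 0.014 with an interval that included 0 (-0.62 to 0.68). The cause was not tested. No paired analysis was possible because each group holds 1 library and the labels carry no shared replicate numbers, and no replicate could be left out. Depth limits Unc5b in venous-like cells (6 UMIs) and Nr2f2 in arterial-like cells (18 UMIs).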
